A study of Mus musculus with 6 samples.

Results

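The proteasome is the large protease that destroys proteins tagged with ubiquitin, and 46 of the 55401 genes in the deposited expression table encode its subunits, assembly chaperones, activators and inhibitor. These members were taken by name, as every mouse gene called Psma, Psmb, Psmc, Psmd, Psme, Psmf or Psmg with a number and, for Psme2b, a letter. The immunoproteasome genes Psmb8, Psmb9 and Psmb10 were left out. The name rule uses no measured value, although it was chosen with earlier results of these data known. Of the 46 members, 44 averaged at least 0.5 FPKM (a level per transcript length and per sequencing depth, from paired reads counted as fragments) over the 6 libraries and were tested among 13588 genes.

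The study used small interfering RNA (siRNA) to lower Ifitm3, an interferon-induced membrane protein, in neural retinal progenitor cells from adult mice, kept as a cultured line, and sequenced polyadenylated RNA 48 h after transfection. There were 3 libraries of cells given Ifitm3 siRNA, called the knockdown libraries below, and 3 libraries of cells given a control siRNA. All cells grew on Matrigel in N2 and B27 medium with bFGF and the GSK3 inhibitor CHIR99021 and were transfected with the same lipid reagent, so no untransfected cells enter the comparison, and the labels do not say whether the 3 libraries of a group came from separate cultures. FPKM do not keep the depth of sequencing, which is unknown here, so no counting error can be given.

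The targeted gene checked the labels. Ifitm3 stood at 349.7, 546.4 and 398.5 FPKM in knockdown libraries 1, 2 and 3, against 3121.3, 2120.2 and 2509.2 FPKM in control libraries 1, 2 and 3. Its mean in the knockdown was 16.7% of the control mean (log2 fold change -2.59 ± 0.23 SE, limma adjusted p = 0.1001), and the groups did not overlap (exact two-sided permutation p = 0.1, the smallest that 3 libraries against 3 can give). Across the genome the first principal component, with 37.1% of the variance, set the replicate 2 libraries of both groups apart from the other 4, and the second, with 22.3%, separated the groups. Between 11966 and 12274 genes reached 1 FPKM in each library. Of the retinal progenitor markers, Pax6 (8.39 to 13.72 FPKM), Sox2 (32.13 to 58.55 FPKM), Nes and the proliferation gene Mki67 were present in all 6 libraries, whereas the defining marker Rax was listed at 0 throughout. Photoreceptor, microglia, endothelial and pigment epithelium markers summed to under 1 FPKM in every library. The 6 mesenchymal markers, led by Col3a1, summed to between 85.9 and 173.4 FPKM in the knockdown and between 136.2 and 201.6 FPKM in the control, with Col1a1, Col1a2 and Dcn each averaging under 1 FPKM, and their part in the results was not tested.

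In the proteasome a barrel-shaped core particle, built of outer alpha rings and inner beta rings, encloses the sites that cut proteins, and a regulatory particle docked on the outer ring recognises ubiquitin chains, unfolds the substrate with a ring of ATPases and threads it in. Dedicated chaperones assemble the alpha ring and the base of the regulatory particle, and other caps can take the place of the regulatory particle. Dividing progenitors rely on the complex to remove cyclins and short-lived regulators of cell fate, and when its activity drops in mammalian cells the transcription factor NFE2L1 (NRF1) raises the genes of all its parts together through antioxidant response elements in their promoters.

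The promoter stretches shown here hold the core of that element, TGACNNNGC, close to the transcription start. Promoter windows (250 bases before to 50 after the start) were available from RefSeq on the mouse assembly GRCm38.p6 for 38 of the 46 members, and each line gives 49 bases in the direction of the gene with the motif in capitals.

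Psmd9 promoter, chr5:123228139-123228187, plus strand: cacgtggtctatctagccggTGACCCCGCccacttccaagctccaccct

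Psmb5 promoter, chr14:54618014-54618062, minus strand: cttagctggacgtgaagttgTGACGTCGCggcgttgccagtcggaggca

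Psmb6 promoter, chr11:70525328-70525376, plus strand: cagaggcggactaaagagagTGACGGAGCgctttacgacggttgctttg

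Psme4 promoter, chr11:30771748-30771796, plus strand: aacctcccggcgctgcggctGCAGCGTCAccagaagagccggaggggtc

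The first base of the motif lies 31 bases before the start in Psmd9, 47 in Psmb5, 9 in Psmb6 and 7 in Psme4, where it is read on the opposite strand. For Psmb6 no transcript of the mouse annotation GENCODE vM21 starts at the position used, so its distance is less certain. With both strands searched, TGACNNNGC occurred in 6 of the 38 member genes with a window (15.8%), against 14% of all 27025 genes with one. The remaining matches, in Psmd12 and Psmc6, lie at -247 and -227 from the start. CCAAT, the motif of the factor NF-Y, occurred in 13 of the 38 members (34.2%), against 41.1% of all genes. The shares of the members were thus near those of genes at large. A match of letters is a description and not a measured binding site.

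The proteasome genes were abundant and changed little between the groups. The 44 tested members averaged between 3.98 and 150.8 FPKM over the 6 libraries, with a median of 46.95 FPKM, against a median of 5.82 FPKM over all genes tested, and 41 of them exceeded 10 FPKM. Their log2 fold changes, knockdown over control on the log2(FPKM + 0.1) scale, ran from -0.33 to 0.35 with a median of -0.06 (0.957-fold), whereas the median of all 13588 genes was 0.05. Of the 44 estimates, 34 lay below 0 (77.3%, against 43.2% of all genes tested), and 34 lay within 0.2 of 0 (77.3%, against 52.8%). The middle part of the distribution was narrow as well, with quartiles of -0.17 and -0.002 for the members and -0.13 and 0.23 for all genes. The shares and quartiles of all genes were not matched to the higher level of the members. The shares below 0 moved with the scaling, as given in the last section.

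None of these differences passed the test, which the targeted gene Ifitm3 did not pass either (limma adjusted p = 0.1001). No member reached an adjusted p under 0.05 in limma, a threshold that 1 of the 13588 genes (0.00736%) passed, and none met the thresholds used in the study (absolute log2 fold change over 1 and unadjusted p under 0.05), which 1.43% of all genes met. A single member, Psmd9, had an unadjusted p under 0.05, against 8.69% of all genes tested. It was lower in the knockdown, as were 3.37% of all genes at this level, and no member was higher, as were 5.32%. The 95% interval of the log2 fold change lay inside ±1, a factor of 2 either way, for 43 of the 44 members, the exception being Psmd5, and its median half-width was 0.30. In bulk RNA, fewer cells carrying a transcript and less of it per cell cannot be told apart.

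**Figure D1:**
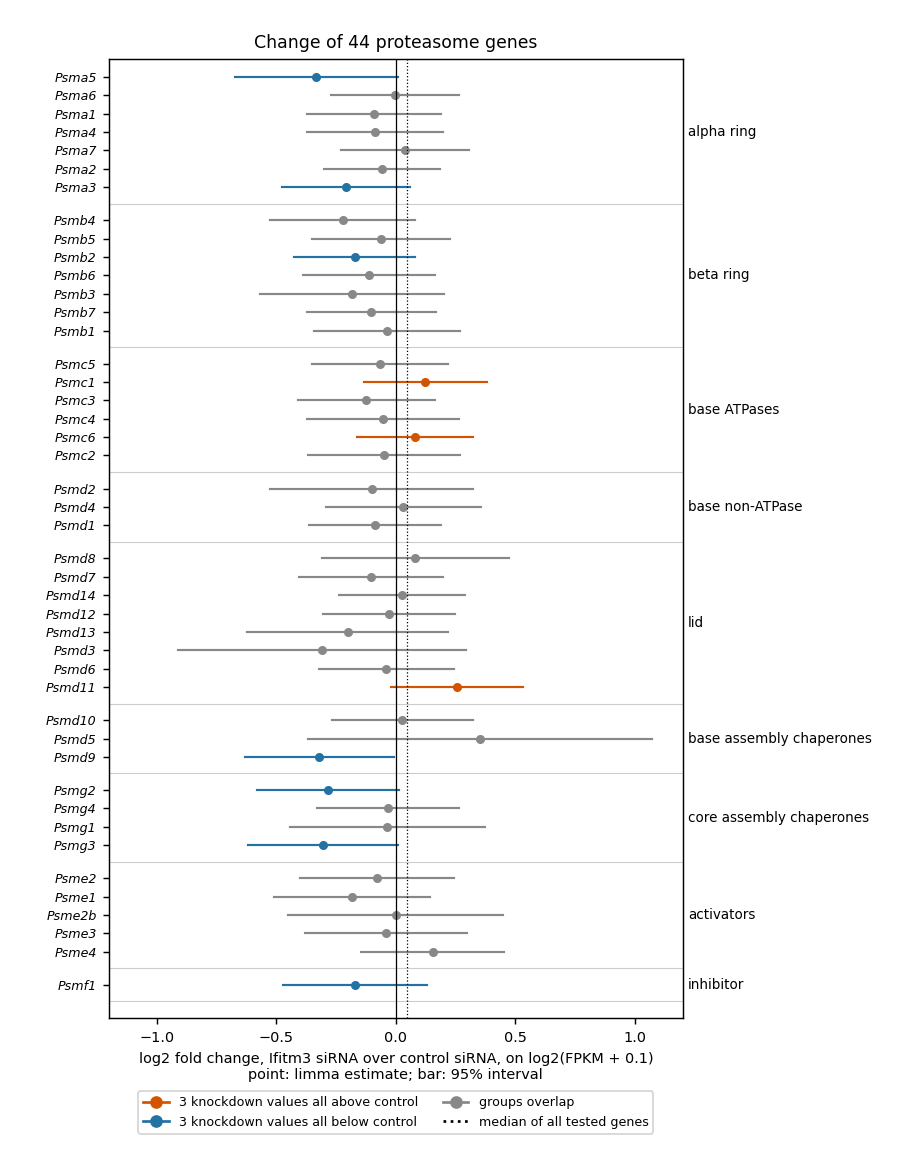
Log2 fold change of each of the 44 tested proteasome genes, knockdown over control, on the log2(FPKM + 0.1) scale, by role, with limma 95% intervals; colour marks the members whose 3 knockdown values all lie above or all below the 3 control values. The estimates run from -0.33 (Psma5) to 0.35 (Psmd5), and only the interval of Psmd9 leaves out 0.

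**Figure D2:**
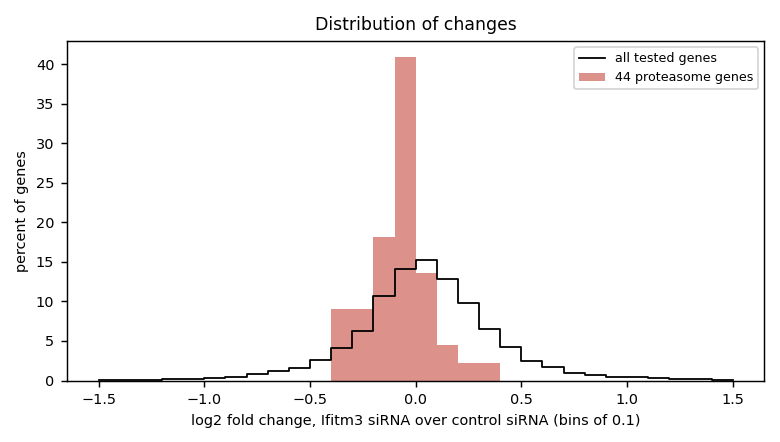
Share of genes by log2 fold change, knockdown over control, for the 44 tested proteasome genes and for all 13588 genes tested. The members crowd on the lower side of 0, with 34 of 44 estimates below it.

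The values of single libraries give the scale of these differences. The groups did not overlap for 3 members that were higher in every knockdown library (Psmd11, Psmc1 and Psmc6), against 9.96% of all genes tested, and for 7 that were lower in every one (Psma5, Psmd9, Psmg3, Psmg2, Psma3, Psmb2 and Psmf1), against 5.69%. The lowest of the 6 values fell in a knockdown library for 33 of the 44 members, against 47.5% of all genes tested. Of these lowest values 18 fell in knockdown library 3, 8 in knockdown library 2 and 7 in knockdown library 1. The highest value fell in a knockdown library for 21 members, 12 of them in knockdown library 1, and in a control library for 23. The pooled standard deviation (SD) within groups had a median of 0.11 on the log2 scale for the members, against 0.25 for all genes tested and 0.21 for the 7988 genes in the same range of levels. Psmc6 was the steadiest at 0.03 and Psmd5 the least steady at 0.45.

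**Figure D3:**
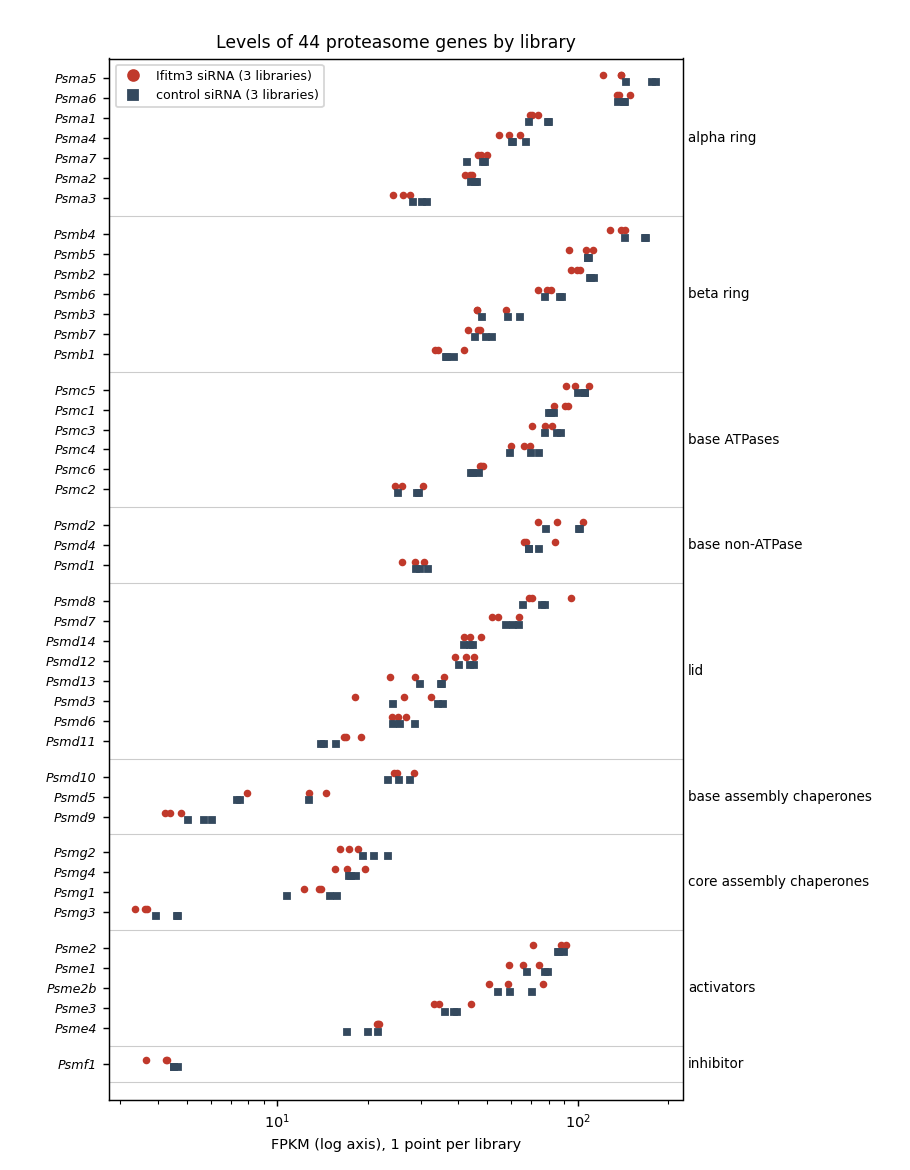
FPKM of every tested proteasome gene in each of the 6 libraries (log axis), knockdown and control, by role. Levels run from about 4 FPKM (Psmg3 and Psmf1) to over 100 FPKM for 6 members, and the groups sit close together in every row.

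The alpha ring forms the gate through which substrates enter, and its 7 ubiquitous subunits averaged between 28.0 and 150.8 FPKM over the 6 libraries. Of the 7 log2 fold changes 6 were below 0, with a median of -0.09, and none passed the test. Psma5, the most abundant of them, measured 139.0, 121.2 and 139.5 FPKM in knockdown libraries 1, 2 and 3, against 177.6, 144.7 and 183.1 FPKM in control libraries 1, 2 and 3. Every knockdown value was thus below every control value, with the replicate 2 library the lowest of each group. The knockdown mean was 79.1% of the control mean, and the log2 fold change of -0.33 ± 0.14 (SE) was the lowest of all members (unadjusted p = 0.0547, limma adjusted p = 0.585).

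Psma5 shares sequence with a processed pseudogene listed as Psma5-ps, and the identity of their annotated transcripts in GENCODE vM21 is 98.6% over 952 aligned bases. Psma5-ps stood at 17.6, 16.9 and 20.3 FPKM in the knockdown libraries, against 25.1, 20.1 and 24.5 FPKM in the control libraries, and how the counting divided reads between the genes is uncertain. The pseudogene and Psma5 differed in the same direction.

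Psma7, the only alpha subunit with an estimate above 0, measured 46.4, 50.0 and 47.8 FPKM in the knockdown, against 42.9, 48.4 and 49.1 FPKM in the control (log2 fold change 0.04). Its groups overlapped, and the sign of the estimate turned without control replicate 1 (-0.02) and with median-ratio scaling (-0.003). Psma3 had 27.6, 26.1 and 24.2 FPKM in the knockdown libraries, against 30.3, 28.4 and 31.4 FPKM in the control libraries, with no overlap (log2 fold change -0.21, unadjusted p = 0.108). Psma1, Psma2, Psma4 and Psma6 had estimates between -0.09 and -0.003 and overlapped. Psma8, which replaces an alpha subunit in spermatocytes, was listed at 0 in all 6 libraries.

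The beta ring holds the cutting sites, in Psmb5 (chymotrypsin-like), Psmb6 (caspase-like) and Psmb7 (trypsin-like). All 7 estimates of the ring were below 0, between -0.22 and -0.04 with a median of -0.11, and none passed the test. The catalytic subunit Psmb5 measured 112.9, 107.0 and 93.3 FPKM in the knockdown, against 108.2, 108.3 and 109.2 FPKM in the control. Its control libraries lay close to each other and inside the range of the knockdown libraries (log2 fold change -0.06). Psmb6 (81.7, 79.0 and 74.0 FPKM in the knockdown, against 87.1, 77.9 and 88.9 FPKM in the control) and Psmb7 (47.3, 46.5 and 43.0 FPKM in the knockdown, against 49.5, 45.6 and 52.0 FPKM in the control) overlapped through control library 2 alone, the other control values lying above every knockdown value (log2 fold changes -0.11 and -0.10).

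Psmb4, a structural beta subunit and the most abundant of the ring, had 143.7, 127.8 and 139.7 FPKM in the knockdown libraries, against 167.9, 143.4 and 169.5 FPKM in the control libraries. Control library 2, the lowest of its group, lay just under knockdown library 1, and the groups overlapped only there (85.5% of the control mean, log2 fold change -0.22 ± 0.13 SE, unadjusted p = 0.126). Psmb1, a non-catalytic subunit, was nearest to 0 at -0.04, with 34.4, 41.9 and 33.5 FPKM in the knockdown and 38.9, 36.6 and 36.5 FPKM in the control. Psmb2, also structural, measured 94.9, 102.0 and 99.5 FPKM in the knockdown, against 113.6, 109.7 and 110.6 FPKM in the control. The 3 knockdown values of Psmb2 were all lower and both groups were tight, with a knockdown mean at 88.8% of the control mean (log2 fold change -0.17, unadjusted p = 0.153). Psmb11, the beta subunit of the thymus, was listed at 0 in every library but control library 1, at 0.01 FPKM.

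The 6 ATPases Psmc1 to Psmc6 form the motor of the regulatory particle. Of their estimates 2 were above 0 and 4 below, with a median of -0.05. Psmc1 measured 93.1, 91.0 and 83.6 FPKM in the knockdown libraries, against 81.4, 83.6 and 80.5 FPKM in the control libraries. Knockdown library 3 lay barely above control library 2, so the groups only just did not overlap, and the knockdown mean was 109.1% of the control mean (log2 fold change 0.12 ± 0.11 SE, unadjusted p = 0.293). Psmc6, with 48.5, 47.8 and 47.2 FPKM in the knockdown and 44.2, 46.8 and 44.8 FPKM in the control, also had all knockdown values above (log2 fold change 0.08, unadjusted p = 0.452).

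Psmc5, the most abundant ATPase, had 109.1, 98.2 and 91.4 FPKM in the knockdown and 106.1, 100.4 and 105.8 FPKM in the control. Psmc3 had the lowest estimate of the ring at -0.12, with 82.2, 77.9 and 70.7 FPKM in the knockdown and 88.2, 77.7 and 85.3 FPKM in the control. Their groups overlapped, as did those of Psmc2 and Psmc4. The RNAs of the 6 subunits, which stand in equal number in the complex, had log2 fold changes between -0.12 and 0.12, each with an interval that included 0.

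The other base subunits are the scaffolds Psmd1 and Psmd2 and the ubiquitin receptor Psmd4, and their estimates were -0.09, -0.10 and 0.03. Psmd2 measured 104.0, 73.8 and 85.1 FPKM in the knockdown, against 101.0, 78.4 and 101.6 FPKM in the control. In both groups replicate 2 was the lowest, and without knockdown replicate 2 the estimate of Psmd2 was 0.02. Psmd4 had 66.2, 84.3 and 67.3 FPKM in the knockdown and 74.3, 68.9 and 68.7 FPKM in the control, where knockdown library 2 alone exceeded the control range, and without it the estimate was -0.08.

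The lid removes ubiquitin chains through the enzyme Psmd14, which differed little (47.5, 43.6 and 41.7 FPKM in the knockdown, against 43.8, 41.9 and 44.7 FPKM in the control). Of the 8 lid subunits tested 3 had estimates above 0 and 5 below, with a median of -0.04. Psmd11, the lid scaffold that touches the core particle and is known from human embryonic stem cells as a limiting factor of proteasome assembly, was measured at 19.01, 16.87 and 16.64 FPKM in the knockdown, against 14.29, 14 and 15.62 FPKM in the control. All 3 knockdown values lay above the control values, with a mean at 119.6% of the control mean (log2 fold change 0.26 ± 0.12 SE, 95% interval -0.02 to 0.53, unadjusted p = 0.0651, limma adjusted p = 0.598).

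Psmd3, another lid scaffold, was at the other end, with 32.5, 18.2 and 26.5 FPKM in the knockdown, against 35.5, 24.4 and 34.4 FPKM in the control. Its spread within groups was the second widest of the members, replicate 2 again being lowest in both, and the estimate of -0.31 ± 0.25 (SE) had an interval that included 0 (unadjusted p = 0.261). Psmd8, the most abundant lid member, measured 95.0, 68.9 and 70.6 FPKM in the knockdown and 76.2, 65.7 and 77.9 FPKM in the control. Knockdown library 1 alone stood above the other 5 libraries, and without it the estimate was -0.07, against 0.08 with all libraries. Psmd6, Psmd7, Psmd12 and Psmd13 had estimates between -0.20 and -0.03 and overlapped.

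The 7 chaperones averaged between 3.98 and 25.7 FPKM over the 6 libraries. Psmd5, Psmd9 and Psmd10 hold ATPases during assembly of the base and leave before the proteasome is complete. Psmd9 measured 4.77, 4.38 and 4.23 FPKM in the knockdown libraries, against 5.70, 5.04 and 6.07 FPKM in the control libraries. The groups did not overlap and the knockdown mean was 79.6% of the control mean (log2 fold change -0.32 ± 0.13 SE, 95% interval -0.63 to -0.009, unadjusted p = 0.0453, limma adjusted p = 0.570). When knockdown replicate 1, 2 or 3 was left out in turn, the log2 fold change of Psmd9 was -0.37, -0.31 or -0.28 with an unadjusted p of 0.0503, 0.0864 or 0.122. Leaving out control replicate 1, 2 or 3 gave -0.31, -0.39 or -0.26 with an unadjusted p of 0.112, 0.0332 or 0.153. The size of the difference thus changed little, while its p stayed under 0.05 only without control replicate 2.

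Psmd5 had the highest estimate of all members and the widest spread. It stood at 14.6, 7.93 and 12.7 FPKM in the knockdown, against 7.33, 7.52 and 12.7 FPKM in the control. The 6 values fell into a high set (knockdown libraries 1 and 3 and control library 3) and a low set (the other 3), a division that crossed the groups, and the estimate of 0.35 ± 0.30 (SE) had an interval of -0.37 to 1.07. Psmd10, known as the oncoprotein gankyrin, had 25.0, 28.4 and 24.5 FPKM in the knockdown and 27.7, 23.4 and 25.5 FPKM in the control, and its estimate of 0.03 was -0.04 without knockdown replicate 2.

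Psmg1 to Psmg4 assemble the alpha ring, Psmg1 with Psmg2 and Psmg3 with Psmg4 as pairs. All 4 estimates were below 0, with a median of -0.16, but within each pair 1 partner was lower in every knockdown library and the other overlapped. Psmg2 had 18.5, 17.4 and 16.1 FPKM in the knockdown libraries, against 21.0, 19.2 and 23.3 FPKM in the control libraries, with no overlap (81.9% of the control mean, log2 fold change -0.28 ± 0.12 SE, unadjusted p = 0.0579). Psmg3 had 3.61, 3.36 and 3.67 FPKM in the knockdown libraries, against 4.63, 3.94 and 4.67 FPKM in the control libraries, likewise with no overlap (80.4% of the control mean, log2 fold change -0.30 ± 0.13 SE, unadjusted p = 0.0565). Their partners Psmg1 and Psmg4 lay at -0.04 and -0.03. Psmg4 measured 17.1, 15.6 and 19.5 FPKM in the knockdown and 17.3, 17.6 and 18.2 FPKM in the control.

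**Figure D4:**
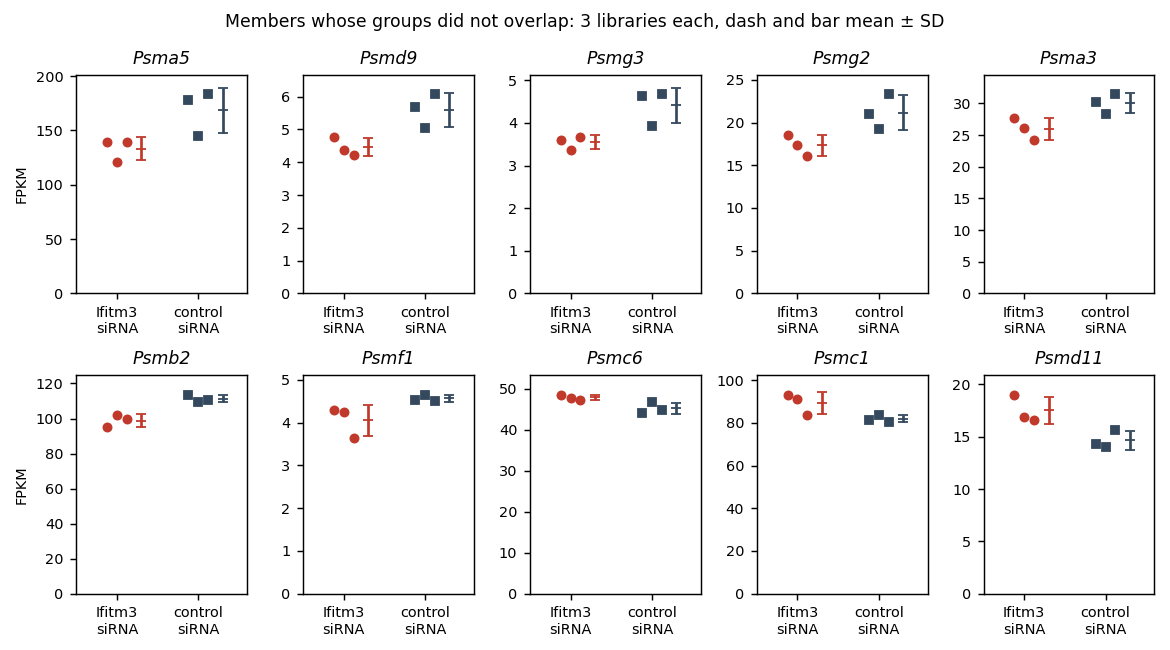
FPKM in each library, knockdown left and control right, of the 10 proteasome genes whose groups do not overlap. The 7 members with lower knockdown values (among them Psma5, Psmd9, Psmg2 and Psmg3) and the 3 with higher ones (Psmd11, Psmc1 and Psmc6) differ in how far the groups lie apart: those of Psmb2 are tight and clearly apart, whereas those of Psmc1 nearly touch.

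The activators cap the core particle in place of the regulatory particle. Psme1 and Psme2 form the cap that interferon gamma induces for antigen processing, Psme3 forms a related nuclear cap, and Psme4 is a large single-chain activator known from the testis and the nucleus. Psme1 measured 58.9, 65.9 and 74.4 FPKM in the knockdown, against 78.2, 79.6 and 67.9 FPKM in the control (log2 fold change -0.18, unadjusted p = 0.226). Psme2 measured 70.9, 88.3 and 91.2 FPKM in the knockdown, against 86.0, 90.3 and 86.6 FPKM in the control (log2 fold change -0.08). For both genes knockdown library 1 was the lowest of the 6, and without it the estimates were -0.10 for Psme1 and 0.03 for Psme2.

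Psme2b, a retrogene copy, matches Psme2 at 789 of the 794 aligned bases of their annotated transcripts, so the division of reads between the genes is uncertain. Its values were 50.5, 58.6 and 76.4 FPKM in the knockdown and 70.4, 59.4 and 54.1 FPKM in the control. The sum of Psme2 and Psme2b was 121.4, 146.8 and 167.7 FPKM in the knockdown and 156.4, 149.7 and 140.7 FPKM in the control, where knockdown libraries 1 and 3 lay on either side of the whole control range. Psme4, at 21.65, 21.83 and 21.48 FPKM in the knockdown and 21.58, 17.05 and 19.96 FPKM in the control, had the highest estimate of the activators (0.16, unadjusted p = 0.258). Psme3 overlapped (log2 fold change -0.04).

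Psmf1, which blocks the core particle in the test tube, had 4.29, 4.24 and 3.64 FPKM in the knockdown libraries, against 4.53, 4.65 and 4.51 FPKM in the control libraries. The groups did not overlap, with a mean at 88.9% of the control mean (log2 fold change -0.17, unadjusted p = 0.224), and knockdown library 3 was the lowest.

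Summed over the particles, the core subunits stood further below the control level than those of the regulatory particle. The 14 ubiquitous core subunits together reached 1094.1, 1075.8 and 1049.5 FPKM in the knockdown, against 1212.7, 1101.0 and 1222.4 FPKM in the control. These groups did not overlap (1073 ± 22.4 FPKM in the knockdown and 1179 ± 67.5 FPKM in the control, SD, n = 3 each, 91.0% of control). Control library 2 lay just above the highest knockdown sum, and without both replicate 2 libraries the sum was 88.0% of control. Without Psma5, the most abundant subunit, it was 93.0% of control, with 956.3 FPKM in control library 2 against 955.0 FPKM in knockdown library 1.

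The 17 subunits of the regulatory particle summed to 997.5, 886.5 and 857.9 FPKM in the knockdown and 958.0, 891.4 and 945.1 FPKM in the control. Their groups overlapped (98.1% of control), knockdown library 1 being the highest of the 6 and knockdown library 3 the lowest. The ratio of the sums, core over regulatory particle, was 1.1, 1.21 and 1.22 in the knockdown, against 1.27, 1.24 and 1.29 in the control. These ratios did not overlap, but they reuse the core sums. Knockdown library 3, at 1.22, lay close to control library 2, at 1.24. The lowest ratio, 1.1, was that of knockdown library 1, which had the highest regulatory sum. The sums of the 7 chaperones (97.4, 89.3 and 94.6 FPKM in the knockdown and 98.5, 87.5 and 106.3 FPKM in the control) and of the 5 activators (245.9, 269.2 and 296.8 FPKM in the knockdown and 292.2, 284.9 and 268.2 FPKM in the control) overlapped. The sums were formed after the values were known and carry no test.

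**Figure D5:**
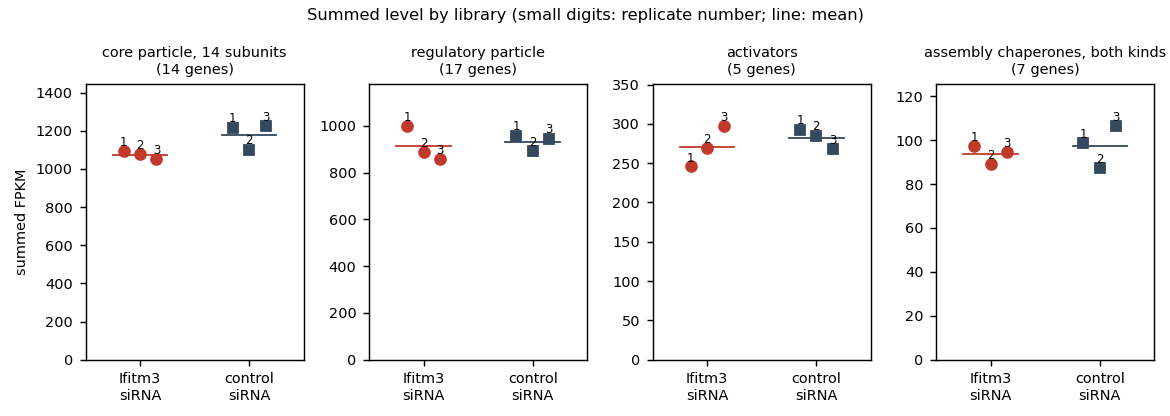
Summed FPKM of the core subunits, the regulatory particle, the chaperones and the activators in each library, with group means; digits are replicate numbers, knockdown left and control right. The core sums of the knockdown (1049.5 to 1094.1 FPKM) lie below those of the control (1101.0 to 1222.4 FPKM), and the other sums overlap.

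The immunoproteasome subunits Psmb8, Psmb9 and Psmb10 replace Psmb5, Psmb6 and Psmb7 in cells exposed to interferon. Psmb10 had 20.1, 19.3 and 27.0 FPKM in the knockdown, against 37.9, 30.7 and 29.0 FPKM in the control. Its groups did not overlap and its knockdown mean was 68.0% of the control mean (log2 fold change -0.56 ± 0.18 SE, unadjusted p = 0.0167, limma adjusted p = 0.506). Psmb8 overlapped, with 21.7, 40.0 and 46.7 FPKM in the knockdown and 52.6, 38.8 and 35.2 FPKM in the control. Psmb9 also overlapped, with 4.11, 11.4 and 9.82 FPKM in the knockdown and 11.7, 10.5 and 7.47 FPKM in the control.

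Each immune subunit had a lower FPKM than the constitutive one it replaces. The ratio of Psmb8 to Psmb5 was 0.192, 0.374 and 0.501 in the knockdown, against 0.486, 0.358 and 0.323 in the control. That of Psmb10 to Psmb7 was 0.425, 0.414 and 0.627 in the knockdown, against 0.765, 0.674 and 0.558 in the control, and the groups overlapped through knockdown library 3. Psmb9 to Psmb6 did not exceed 0.144 in any library. Knockdown library 1 thus held the lowest Psmb8, Psmb9, Psme1 and Psme2 of the 6, and without it Psmb8 and Psmb9 had estimates of 0.06 and 0.12 instead of -0.27 and -0.33.

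Among the genes that work with the proteasome, most differences were also small. Of the subunits outside the name rule, the ubiquitin receptor Adrm1 (18.1, 15.7 and 15.1 FPKM in the knockdown, against 16.4, 15.5 and 16.8 FPKM in the control), the lid component Sem1 (22.8, 25.0 and 21.0 FPKM in the knockdown, against 25.0, 23.9 and 29.1 FPKM in the control) and the core maturation factor Pomp (14.9, 15.5 and 12.7 FPKM in the knockdown, against 12.9, 17.5 and 14.6 FPKM in the control) all overlapped. Of 16 associated enzymes and shuttle proteins 1 was higher at an unadjusted p under 0.05 and none lower, beside 5.32% and 3.37% of all genes tested. A count of 1 in 16 is near those shares, which are also the background of the lists that follow. The gene was Zfand2a, which encodes a zinc finger protein that binds the proteasome and is induced by arsenite, with 11.6, 13.5 and 11.1 FPKM in the knockdown, against 6.13, 7.24 and 5.88 FPKM in the control. Every knockdown value exceeded every control value (log2 fold change 0.90 ± 0.14 SE, unadjusted p = 0.000449, limma adjusted p = 0.345).

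Of the 14 genes of the segregase p97 (Vcp) and its cofactors, which pull ubiquitinated proteins out of membranes and complexes, 1 passed an unadjusted p of 0.05. It was Ubxn4, a p97 cofactor of the endoplasmic reticulum, with 25.5, 27.2 and 26.6 FPKM in the knockdown, against 20.9, 23.5 and 21.8 FPKM in the control (log2 fold change 0.26, unadjusted p = 0.0487). Of the 6 ubiquitin and activating enzyme genes, Uba6, an E1 enzyme, had 5.45, 5.61 and 4.95 FPKM in the knockdown, against 3.49, 4.5 and 3.92 FPKM in the control (log2 fold change 0.42, unadjusted p = 0.0221). For Ubxn4 and Uba6 every knockdown value lay above every control value, and neither passed the adjusted threshold. Vcp itself ran the other way, with 92.0, 76.3 and 85.0 FPKM in the knockdown, against 108.8, 92.7 and 111.0 FPKM in the control (log2 fold change -0.30 ± 0.13 SE, unadjusted p = 0.0615). Derl1, a membrane protein of the endoplasmic reticulum that works with p97, was also lower in every knockdown library (log2 fold change -0.22, unadjusted p = 0.0825). The summed level of the 14 genes lay between 288.8 and 298.1 FPKM in the knockdown and between 299.7 and 311.3 FPKM in the control. Vcp, the most abundant of them, weighed most in this sum. Of the log2 fold changes 7 were above 0 and 7 below, so the sum does not show a lower level shared by the list. The sum carries no test.

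Of 9 transcription factors that include NFE2L1, NFE2L2, their small MAF partners, HSF1 and the subunits of NF-Y, 1 was higher and 1 lower with an unadjusted p under 0.05, both of them NF-Y subunits. Nfyb had 6.98, 9.18 and 6.56 FPKM in the knockdown, against 5.25, 5.29 and 5.77 FPKM in the control (log2 fold change 0.46, unadjusted p = 0.0249). Nfyc had 10.3, 11.4 and 9.29 FPKM in the knockdown, against 14.6, 12.2 and 14.4 FPKM in the control (log2 fold change -0.41, unadjusted p = 0.0195). The main regulator Nfe2l1 scattered within both groups, with 57.5, 12.3 and 13.5 FPKM in the knockdown and 76.6, 67.4 and 9.42 FPKM in the control, so that each group held both high and low libraries.

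The promoter motifs shown above did not share a direction. Psmd9 was lower in the knockdown, Psme4 had an estimate above 0 and the catalytic Psmb5 and Psmb6 lay at -0.06 and -0.11. The median log2 fold change was -0.04 for the 6 members with TGACNNNGC and -0.05 for the 31 tested members with a promoter window and no match, and it was -0.02 for the 12 tested members with CCAAT and -0.07 for the 25 without.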

How the data were processed

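RNA of 3 Ifitm3 siRNA and 3 control siRNA libraries (polyadenylated RNA, strand-marked by dUTP, paired-end Illumina reads) was quantified by the authors as FPKM per gene, deposited in a single table. Trimming, alignment and assembly tools listed in the submitters' processing notes are cutadapt 1.9, HISAT2 2.0.4 and StringTie 1.3.4d, beside the human build hg18, although 99.5% of the 55401 identifiers are those of the mouse annotation GENCODE vM21. For the annotation used in counting, the sources used here give no name. The mouse coordinates and promoters printed are those of RefSeq on GRCm38.p6.

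The 13588 genes averaging 0.5 FPKM or more were compared by limma 3.58.1 (R 4.3.3) on log2(FPKM + 0.1), with a trended prior variance, and the two-sided p-values were adjusted over all of them by the Benjamini-Hochberg method. The sources name thresholds and no test for this comparison. Since separate cultures are not stated, the p-values reflect differences among these libraries alone, possibly technical ones. The script was tested on simulated data.

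Members and lists were chosen with earlier results of these data known. Values per library are given for members at an unadjusted p under 0.05, for the members with the largest and smallest change and the highest level of each role, for members under the filter, and for related genes at an unadjusted p under 0.05 or in lists of under 6 genes. Psma3, Psmb2, Psmb5, Psmb6, Psmb7, Psmc6, Psmd14, Psme2b, Nfe2l1, Vcp and Derl1 were added after their values were seen. Paaf1 was not analysed here. Alternatives were another pseudocount, filter, scaling and variance model, a replicate block and leaving out libraries.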

Additional observations from a re-analysis of the deposited data

How the results depend on the processing

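No proteasome member passed an adjusted p of 0.05 or the thresholds of the study under any of the 16 alternative settings, and the median member change stayed below 0 in all of them. The number of members at an unadjusted p under 0.05, 1 in the report, was 3 without the filter, 4 with median-ratio scaling, 4 with quantile scaling, 0 without the variance trend and 2 without both replicate 2 libraries (Psma5 and Psmd9). Leaving out a library in turn gave 0 to 4, the 4 being Psma5, Psmd9, Psmg2 and Psmg3 without control replicate 2. With the replicate block it was 2 (Psma5 and Psmd3). Same-numbered libraries deviated together with correlations of 0.07, 0.433 and 0.035 for replicates 1, 2 and 3, so the numbers were not taken as pairs, and knockdown library 1 correlated best with control library 3 (0.359). Over all genes, 1001 had an unadjusted p under 0.05 with a higher and 636 with a lower knockdown level under the block, against 723 and 458 without it, 543 and 602 with median-ratio scaling, and 513 and 604 with quantile scaling. Members whose groups did not overlap, 10 in the report, numbered 11 to 19 when a library was left out (21.6% to 33.3% of all genes tested) and 25 without both replicate 2 libraries (44.8% of all genes tested), where fewer libraries are compared. The core sum, with alternatives chosen after seeing the data, was 88.4% of control with median-ratio scaling, 93.0% without Psma5, 88.0% without both replicate 2 libraries and 89.9% without Psma5 and those libraries.

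Of 352 log2 fold changes of the 22 named members over these settings, 16 turned direction. With median-ratio scaling Psma7 was -0.003, Psmd10 -0.016 and Psmd4 -0.012, and without both replicate 2 libraries Psmd10 was -0.101, Psmd4 -0.098 and Psmg4 0.041. Leaving out a library gave -0.021 to 0.075 for Psma7, -0.137 to 0.024 for Psmb1, -0.04 to 0.087 for Psmd10, -0.23 to 0.017 for Psmd2, -0.081 to 0.093 for Psmd4, -0.066 to 0.165 for Psmd8, -0.147 to 0.035 for Psme2 and -0.119 to 0.044 for Psmg4, and the cause was not tested. The Ifitm3 change lay between -2.91 and -2.44 (adjusted p 0.0796 to 0.51), that of Zfand2a between 0.81 and 0.99 (adjusted p 0.221 to 0.768) and that of Psmb10 between -0.71 and -0.45 (unadjusted p 0.00609 to 0.0708). With 3 libraries a group and no read counts, the 95% interval of a typical member reached 0.30 to either side on the log2 scale. Smaller differences could not be detected even before adjustment for the number of genes. The adjusted threshold was far stricter, since Ifitm3 itself missed it in every setting. That no member passed it therefore says little about differences of the size seen here.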
